A study of Sus scrofa with 11 samples.

Results

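Genes of fatty acid and triglyceride synthesis differed unevenly between diabetic and non-diabetic pig wounds, and the largest differences were in SCD, the desaturase that makes oleate, and THRSP, a nuclear protein that promotes lipogenesis. SCD was 12.2 ± 4.25 FPKM in diabetic wounds (SD, n = 7) and 137 ± 140 FPKM in non-diabetic wounds (SD, n = 4), and THRSP was 1.98 ± 2.26 and 69.3 ± 46.8 FPKM. The members were taken by symbol from a pathway list of 34, and all 34 were among the 30376 genes with deposited values. The values were in FPKM, fragments per kilobase of gene with 1 scaling factor per library, which corrects for gene length, so levels of different genes are set side by side only in FPKM.

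RNA was sequenced from full-thickness skin wounds excised on day 10 from female Yucatan minipigs, a small breed of pig, with 1 library per wound. The diabetic group was 7 wounds of 1 minipig given streptozotocin (STZ), a toxin of insulin-producing cells, at 6 months of age, wounded 60 days later and without insulin from a week before wounding. The non-diabetic group was 4 wounds of 1 minipig without STZ, whose age was not given. Each group was therefore 1 animal, so diabetes cannot be told apart from any other difference between the 2 animals, and every p-value below measures only the spread between wounds.

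In de novo synthesis, citrate leaves the mitochondrion and is split into acetyl-CoA, acetyl-CoA carboxylase turns this into malonyl-CoA, and fatty acid synthase joins the units into palmitate with NADPH as the reductant. Elongases and desaturases then lengthen the chain and add double bonds, acyl-CoA synthetases activate it, and acyltransferases, lipins and diacylglycerol acyltransferases build it into triglyceride. Insulin drives the pathway through the transcription factor SREBF1, glucose drives it through MLXIPL, and in skin it is best known from adipocytes, sebaceous glands and the epidermal barrier.

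Between 28314785 and 40168372 reads per library fell on genes, so that for a 2 kb gene a single read was worth 0.0112 to 0.0194 FPKM. A pair of libraries stood apart, diabetic replicate 4 and non-diabetic replicate 1, in which keratinocyte markers summed to 70.9 and 361 FPKM against 2203 to 7683 FPKM in the other 9. Of the 34 members, 32 reached an FPKM of 0.5 in at least 4 libraries and entered the test, and none of them passed this filter through 1 group alone. The elongase ELOVL3 and the fatty acid transporter SLC27A6 did not reach it. Differences are log2 fold changes of diabetic over non-diabetic wounds on log2(FPKM + 0.5), fitted with limma over 13956 genes, and a gene was called when its log2 fold change passed 0.5 in size with a Benjamini-Hochberg adjusted p under 0.05.

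Of the 32 members tested, 8 were called lower in diabetic wounds, against 1.66% of all genes tested, and 0 were called higher, against 1.35%. The members and the other lists below were chosen with earlier results of these data known, so these counts describe the lists and do not test them. At an unadjusted p under 0.05 the limma fit held 14 lower and 4 higher members. No share over all genes was taken at that threshold, so the unadjusted counts here and below stand without a background. Among the other fits, voom on recovered reads called 0 higher and library weights called 2 higher, ACSS1 and AGPAT3. The 8 were ACACA in chain assembly, ELOVL5 and ELOVL6 in elongation, SCD and FADS1 in desaturation, ACSL3 in activation, PNPLA3 in glycerolipid assembly and THRSP among the regulators. All 7 diabetic wounds were lower than all 4 non-diabetic wounds in 9 of the 32, against 2.96% of all genes tested, and in the untested SLC27A6. The reverse order was seen in 0 of the 32, against 2.69%. The median log2 fold change over the 32 members was -0.28, beside 0.01 over all genes tested, and 19 of the 32 lay below 0. Without diabetic replicate 4 and non-diabetic replicate 1, SCD, ACSL3, PNPLA3 and THRSP were called and the other 4 missed at limma adjusted p from 0.0689 to 0.0797, with log2 fold changes from -2.19 to -0.74. In bulk tissue, fewer cells of a type and less RNA per cell cannot be told apart.

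**Figure D1:**
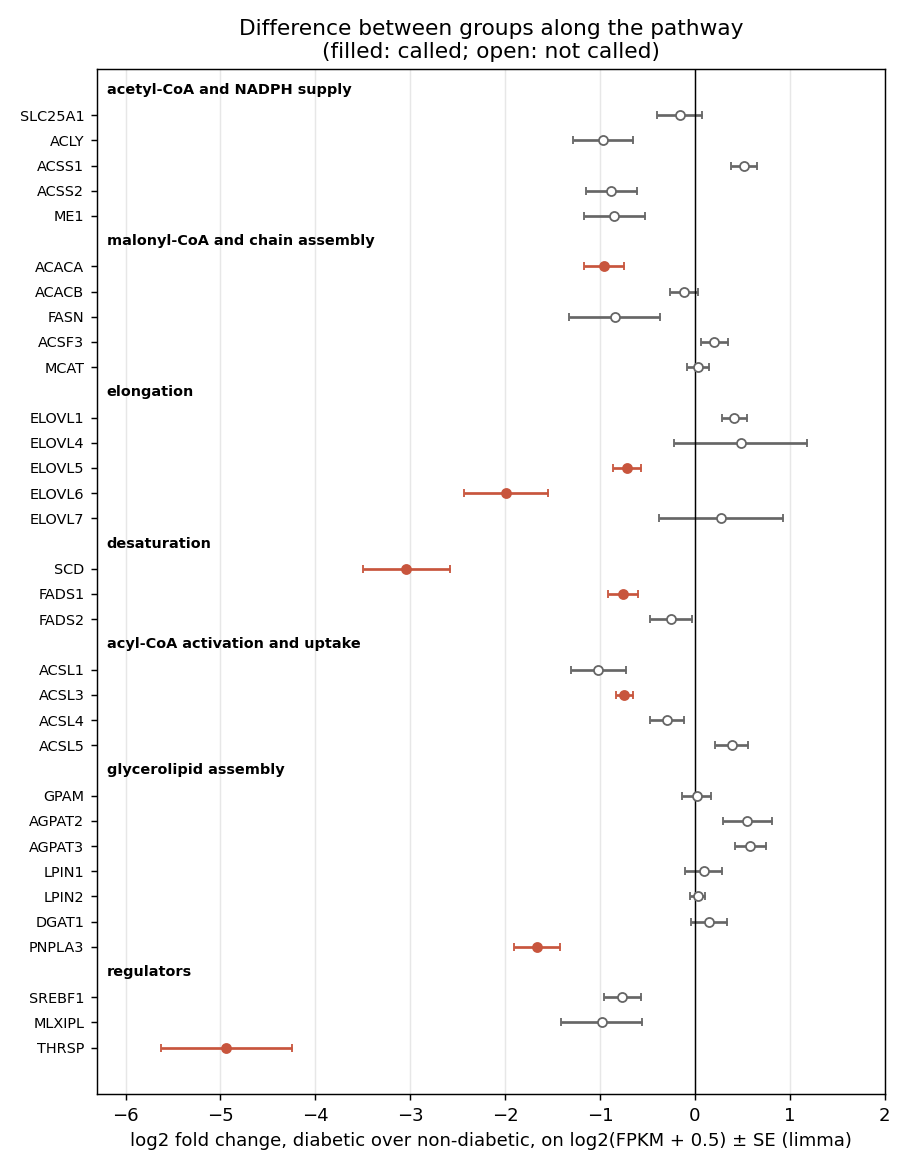
Log2 fold change of diabetic over non-diabetic wounds on log2(FPKM + 0.5), with its standard error from limma (horizontal axis), for the 32 members tested, grouped by pathway step from top to bottom. Filled points mark the 8 members called, all to the left of 0, from ELOVL5 at -0.72 to THRSP at -4.94.

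The sequences just before the start of SCD, THRSP and ELOVL6 are printed because these were the 3 members with the largest fitted differences. Each is the 250 bases before the annotated gene start in Sscrofa11.1, read 5′ to 3′ on the strand of the gene. SCD is on the plus strand at chr14:111461310-111461559, THRSP on the plus strand at chr9:12479663-12479912, and ELOVL6 on the plus strand at chr8:112038420-112038669. Capitals mark the NF-Y box, whose letters are CCAAT, and the GC box, whose letters are GGGCGG, each on either strand, and no 2 of them overlap in the 3 sequences.
SCD: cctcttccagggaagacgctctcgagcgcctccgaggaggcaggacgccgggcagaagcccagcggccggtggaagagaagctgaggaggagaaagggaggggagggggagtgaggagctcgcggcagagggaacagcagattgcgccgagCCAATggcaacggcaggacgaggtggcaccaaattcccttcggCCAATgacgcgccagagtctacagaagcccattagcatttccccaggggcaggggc
THRSP: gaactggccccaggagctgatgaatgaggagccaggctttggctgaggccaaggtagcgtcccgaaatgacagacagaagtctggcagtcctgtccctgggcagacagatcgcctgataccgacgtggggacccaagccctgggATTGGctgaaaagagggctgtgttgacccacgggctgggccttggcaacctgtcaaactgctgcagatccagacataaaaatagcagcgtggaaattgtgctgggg
ELOVL6: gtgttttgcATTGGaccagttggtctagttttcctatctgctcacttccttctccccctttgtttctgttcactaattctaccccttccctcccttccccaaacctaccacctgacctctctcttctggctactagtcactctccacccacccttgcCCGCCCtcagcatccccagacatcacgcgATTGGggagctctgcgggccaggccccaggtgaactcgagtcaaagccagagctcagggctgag

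SCD carried the NF-Y box at 99 and 56 bases before its start, and THRSP carried 1 at 106 bases. ELOVL6 carried it at 241 and 64 bases with a GC box at 93. Across windows of the same length before 20664 protein-coding genes, searched on both strands, the NF-Y box was found in 31.97%, and it was found in 16 of the 34 members and 7 of the 8 called. The GC box was found in 44.43% of all windows, in 22 members and in 6 of the 8 called. The sterol regulatory element TCACNCCAC, the letters that SREBF1 is known to bind, was found in 0.77% of all windows and in 2 members, ACSS1 and SLC25A1, with 0 of the 8 called. The E-box CACGTG was found in 6.16% of all windows and in 2 members, ELOVL5 and SLC25A1. The shares over all windows include genes that were not tested, and no share over tested genes or over windows of like GC content was taken. The counts among members and called genes therefore stand as descriptions. These matches describe letters in a short window and give no occupancy of any factor.

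Supply of acetyl-CoA and NADPH came first. None of its 5 genes was called. ACLY, which makes cytosolic acetyl-CoA from citrate, was 20.0 to 34.7 FPKM in diabetic wounds (median 30.1) and 43.2, 58.9, 133 and 31.1 FPKM in non-diabetic replicates 1 to 4. The groups overlapped through non-diabetic replicate 4 alone, which lay below 3 diabetic wounds, and the log2 fold change was -0.97 with a standard error of 0.32 (limma adjusted p = 0.124). The cytosolic malic enzyme ME1, a source of NADPH, was 10.0 to 16.1 FPKM in diabetic wounds (median 13.5) and 14.1, 23.1, 58.7 and 17.02 FPKM in the 4 non-diabetic wounds, with overlap through replicate 1 (log2 fold change -0.85, SE 0.32, limma adjusted p = 0.178). SLC25A1, the mitochondrial citrate carrier, overlapped widely, at 10.5 to 20.1 FPKM against 17.3, 16.9, 32.5 and 12.2 FPKM.

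The acetyl-CoA synthetases, which activate acetate, lay on opposite sides of 0. Cytosolic ACSS2 was 5.53 to 10.7 FPKM in diabetic wounds (median 8.81) and 15.0, 13.8, 31.3 and 9.24 FPKM in non-diabetic wounds, with a log2 fold change of -0.88 (SE 0.27, limma adjusted p = 0.101). Mitochondrial ACSS1 was 5.01 to 8.04 FPKM in diabetic wounds (median 6.41) and 4.62, 4.04, 3.73 and 5.09 FPKM in non-diabetic wounds, with a log2 fold change of 0.52 (SE 0.14, limma adjusted p = 0.0627). Each alone overlapped between the groups, but the ratio of ACSS2 to ACSS1 within a wound, a measure chosen after the values were seen and given without a test, did not. It was 1.01 to 1.59 in diabetic wounds and 1.82 to 8.39 in non-diabetic wounds.

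In chain assembly, 1 of 5 genes was called. ACACA, the cytosolic acetyl-CoA carboxylase that commits acetyl-CoA to synthesis, was 4.38 to 6.28 FPKM in diabetic wounds (median 5.05) and 8.58, 9.66, 18.6 and 7.47 FPKM in non-diabetic wounds. All 7 diabetic wounds lay below all 4 non-diabetic wounds, and the log2 fold change was -0.96 (SE 0.21, limma adjusted p = 0.0289). The call for ACACA was lost without any 1 of diabetic replicates 3, 5, 6 and 7 or of non-diabetic replicates 1 and 2, at limma adjusted p from 0.0502 to 0.0629.

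FASN, the multienzyme that builds palmitate, was 28.9 to 68.9 FPKM in diabetic wounds (median 42.0) and 63.2, 74.6, 245 and 24.3 FPKM in non-diabetic wounds. Non-diabetic replicate 3 was the highest of all 11 wounds and non-diabetic replicate 4 the lowest. The log2 fold change was -0.85 with a standard error of 0.48 (limma adjusted p = 0.382). Over the 11 fits that left out 1 wound it ran from -1.37 to -0.27, the latter without non-diabetic replicate 3. FASN was thus not called, although its group means were 41.9 ± 13.3 and 102 ± 98.0 FPKM.

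The other carboxylase, ACACB, which sits at the outer mitochondrial membrane and restrains fatty acid oxidation, was 0.553 to 1.23 FPKM against 0.949 to 1.30 FPKM, with a log2 fold change of -0.12 (SE 0.15). The mitochondrial pathway members ACSF3, a malonyl-CoA synthetase, and MCAT, a malonyltransferase, had log2 fold changes of 0.21 and 0.03, and their groups overlapped.

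Elongation held 2 called genes of 5 tested. ELOVL6, which extends palmitate to stearate, was 2.41 to 4.91 FPKM in diabetic wounds (median 3.32) and 11.5, 13.2, 52.8 and 5.82 FPKM in non-diabetic wounds. The groups did not overlap, with non-diabetic replicate 4 nearest to the diabetic wounds, and the log2 fold change was -1.99 (SE 0.44, limma adjusted p = 0.0332). Without non-diabetic replicate 3 the log2 fold change of ELOVL6 was -1.39 and the gene was still called, whereas without any 1 of diabetic replicates 3, 5 and 7 or non-diabetic replicates 1 and 2 the call was lost at limma adjusted p from 0.0640 to 0.0722.

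ELOVL5, which extends polyunsaturated chains, was 16.9 to 20.6 FPKM in diabetic wounds (median 17.9) and 28.6, 30.8, 45.1 and 22.7 FPKM in non-diabetic wounds. The diabetic wounds lay within a narrow band, and the log2 fold change was -0.72 (SE 0.15, limma adjusted p = 0.0247). The call for ELOVL5 was lost without any 1 of diabetic replicates 3 and 5 or non-diabetic replicates 1 and 2, at limma adjusted p from 0.0517 to 0.0635.

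The remaining elongases did not follow them. ELOVL1, which makes very long saturated chains, was 17.9 to 26.2 FPKM against 13.0 to 19.8 FPKM, with a log2 fold change of 0.41 (SE 0.13, limma adjusted p = 0.109). ELOVL4, an elongase of the epidermal barrier, ranged from 1.89 to 22.5 FPKM among diabetic wounds and from 2.07 to 14.1 FPKM among non-diabetic wounds, and ELOVL7 ranged from 2.63 to 33.4 and from 2.53 to 19.2 FPKM. For both genes the lowest wound of each group was diabetic replicate 4 and non-diabetic replicate 1, the 2 wounds with the lowest keratin gene KRT5, at 29.2 and 211 FPKM against 817 to 2861 FPKM elsewhere. The log2 fold changes of ELOVL4 and ELOVL7 were 0.48 (SE 0.70) and 0.28 (SE 0.65), and that of ELOVL7 was -0.01 without these 2 wounds and -0.12 with keratinocyte markers as a covariate. ELOVL3 was at 0 to 0.146 FPKM, with at most 10 reads in a library (two-sided exact permutation p = 0.239).

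Desaturation showed the largest difference of any enzyme among the members. SCD, which places the first double bond in stearate and palmitate, was 7.89 to 19.1 FPKM in diabetic wounds (median 10.6) and 65.9, 90.4, 346 and 47.3 FPKM in non-diabetic wounds. The lowest non-diabetic wound was above the highest diabetic wound, and the log2 fold change was -3.04 (SE 0.46, limma adjusted p = 0.00459), 8.22-fold lower on the log2(FPKM + 0.5) scale. Without non-diabetic replicate 3 it was -2.44 and still called, and SCD was called in all 11 fits that left out 1 wound. SCD5, the other stearoyl-CoA desaturase and not a member, had overlapping values of 4.17 to 11.8 and 5.71 to 10.6 FPKM, with a log2 fold change of 0.07 (SE 0.26). Within a wound the ratio of SCD to SCD5 was 0.669 to 4.59 in diabetic and 6.22 to 60.5 in non-diabetic wounds. This ratio too was chosen after the values were seen and carries no test.

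FADS1, the delta-5 desaturase of polyunsaturated chains, was 7.75 to 13.3 FPKM in diabetic wounds (median 10.0) and 16.2, 13.6, 18.7 and 21.0 FPKM in non-diabetic wounds. Its highest wound was non-diabetic replicate 4, the wound that was lowest of its group for SCD, FASN and ELOVL6. The log2 fold change of FADS1 was -0.76 (SE 0.16, limma adjusted p = 0.0224), and the call was lost without any 1 of non-diabetic replicates 1, 3 and 4, at limma adjusted p from 0.0578 to 0.0789. FADS2, the delta-6 desaturase that acts before it, overlapped at 9.17 to 25.3 and 15.5 to 19.3 FPKM, with a log2 fold change of -0.25 (SE 0.22, limma adjusted p = 0.604).

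Among genes of acyl-CoA activation and uptake, 1 of 4 tested was called. ACSL3, an acyl-CoA synthetase of the endoplasmic reticulum and lipid droplet, was 5.29 to 6.88 FPKM in diabetic wounds (median 6.06) and 10.7, 9.78, 10.9 and 10.1 FPKM in non-diabetic wounds. It combined a modest difference with the tightest non-diabetic values of the 8 called genes, the highest being 1.12 times the lowest. The log2 fold change was -0.74 (SE 0.088, limma adjusted p = 0.00103), and ACSL3 was called in all 11 fits that left out 1 wound.

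ACSL1, the main synthetase of adipose tissue, was 6.90 to 13.2 FPKM in diabetic wounds (median 9.68) and 16.6, 17.4, 44.3 and 11.6 FPKM in non-diabetic wounds. Only non-diabetic replicate 4 reached into the diabetic range, below 1 diabetic wound, and ACSL1 missed the threshold (log2 fold change -1.02, SE 0.29, limma adjusted p = 0.0871). ACSL4, which prefers arachidonate, had a log2 fold change of -0.30 (SE 0.18). ACSL5, a mitochondrial and reticulum synthetase, had one of 0.39 (SE 0.17). The ratio of ACSL1 to ACSL5 within a wound was 0.369 to 0.750 in diabetic and 0.855 to 3.21 in non-diabetic wounds. It was chosen after the values were seen and carries no test. Other ratios overlapped between the groups. These were ACACA to ACACB, FASN to ACACA, ELOVL6 to ELOVL5, FADS1 to FADS2, ACSL3 to ACSL4 and DGAT2 to DGAT1.

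SLC27A6 was low everywhere, at 0.104 to 0.253 FPKM in diabetic wounds and 0.391, 0.542, 0.503 and 0.325 FPKM in non-diabetic wounds, from 58 to 274 reads. The groups did not overlap, and an exact permutation test, two-sided, gave p = 0.00303, the smallest value that 330 splits allow.

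In glycerolipid assembly, 1 of 7 genes was called, PNPLA3, a lipase and acyltransferase of the lipid droplet and a target of SREBF1. PNPLA3 was 0.298 to 1.38 FPKM in diabetic wounds (median 0.745) and 2.83, 4.74, 4.28 and 2.45 FPKM in non-diabetic wounds, from 30 to 424 reads. The groups did not overlap, and the log2 fold change was -1.66 (SE 0.24, limma adjusted p = 0.00345), with a call in all 11 fits that left out 1 wound.

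The other 6 genes of this step had fitted differences above 0, and none was called. GPAM, the mitochondrial enzyme of the first acylation, was at 0.02 (SE 0.15), LPIN1 and LPIN2, the phosphatidate phosphatases, at 0.09 (SE 0.20) and 0.03 (SE 0.079), and DGAT1, an enzyme of the last acylation, at 0.15 (SE 0.19). LPIN2 was nearly flat, at 5.34 to 6.59 FPKM in diabetic and 5.58 to 6.03 FPKM in non-diabetic wounds. The signs of GPAM, LPIN1 and LPIN2 changed in some other fits, and LPIN1 ranged from -0.03 to 0.25 over them. AGPAT3, an acyltransferase of the second acylation, was 2.98 to 5.23 FPKM in diabetic wounds and 1.79, 3.22, 2.18 and 2.04 FPKM in the 4 non-diabetic wounds, for a log2 fold change of 0.58 (SE 0.16, limma adjusted p = 0.0763). AGPAT2, the form known from adipose tissue, was 9.43 to 23.3 and 7.20 to 15.1 FPKM (log2 fold change 0.55, SE 0.26, limma adjusted p = 0.281).

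Among the regulators, THRSP was the member with the largest difference. It was 0 to 6.67 FPKM in diabetic wounds (median 1.14) and 52.1, 80.1, 128 and 17.1 FPKM in non-diabetic wounds. Diabetic replicate 1 was at 0 reads and diabetic replicate 6 was the highest of its group, still below every non-diabetic wound. The log2 fold change was -4.94 (SE 0.69, limma adjusted p = 0.00285), 30.7-fold lower on the log2(FPKM + 0.5) scale, and the call was kept in all 11 fits that left out 1 wound.

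SREBF1 was 6.94 to 13.96 FPKM in diabetic wounds (median 10.9) and 15.0, 20.9, 24.3 and 15.1 FPKM in non-diabetic wounds. Its groups did not overlap, but it missed the call in the fit over all genes (log2 fold change -0.77, SE 0.19, limma adjusted p = 0.0545), and without diabetic replicate 6 it passed at 0.0474. MLXIPL was 0.0573 to 2.05 FPKM in diabetic wounds and 2.06, 1.88, 5.17 and 0.829 FPKM in non-diabetic wounds, with overlap (log2 fold change -0.98, SE 0.43, limma adjusted p = 0.244).

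**Figure D2:**
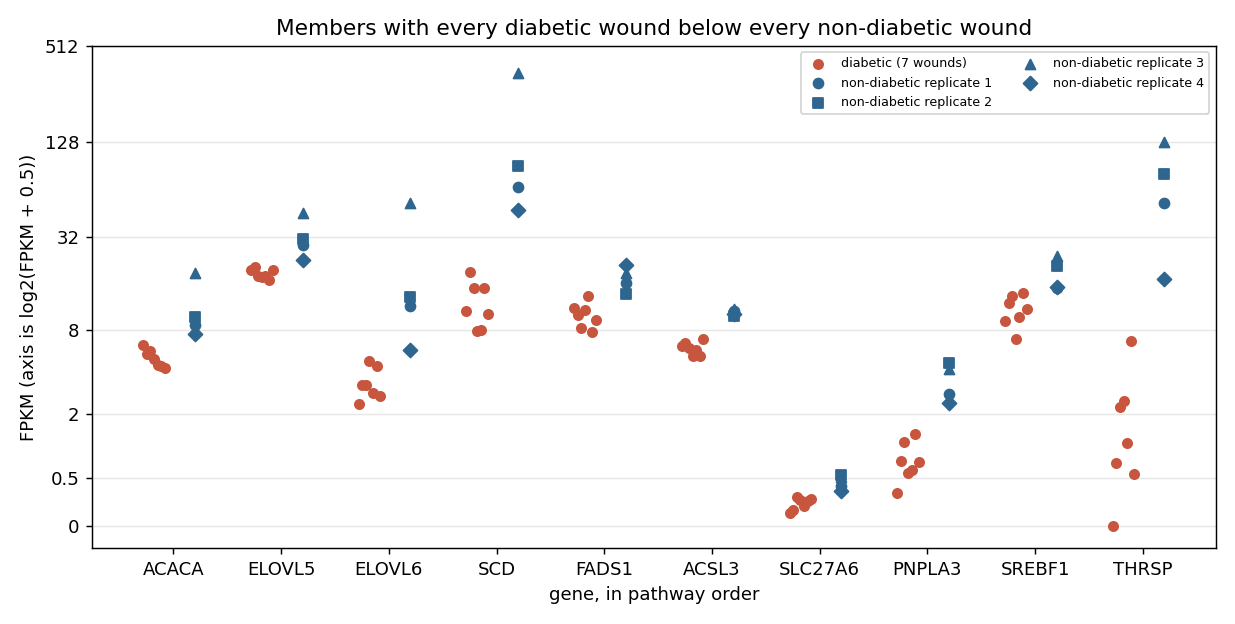
FPKM on a log2(FPKM + 0.5) axis in each wound for the 10 members whose groups did not overlap, in pathway order, with diabetic wounds as circles on the left of each gene and the 4 non-diabetic wounds by their own marks on the right. Non-diabetic replicate 3 stands highest for SCD at 346 FPKM and ELOVL6 at 52.8 FPKM, whereas the 4 non-diabetic wounds lie together for ACSL3.

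The spread among non-diabetic wounds was large in several members. Non-diabetic replicate 3 was the highest of the 4 in 19 of 32 members, beside 25.61% of all genes tested, and the highest of all 11 wounds in 14 of 32, beside 9.165%. It was at least 2 times every other non-diabetic wound in 8 of 32 members, beside 0.824% of all genes. Those 8 were ACLY, ACSS2, ME1, FASN, ELOVL6, SCD, ACSL1 and MLXIPL. Non-diabetic replicate 4 was the lowest of its group in 14 of 32, beside 22.4%. The full order of replicates 3, 2, 1 and 4 from high to low was found in 9 of 32, beside 2.515%. These replicates, the cut of 2 times and this order were chosen after the values were seen, so the shares are descriptions and carry no test.

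The highest non-diabetic value was 10.1 times the lowest for FASN, 9.07 times for ELOVL6, 7.49 times for THRSP, 7.31 times for SCD and 4.28 times for ACLY. In diabetic wounds the same ratio was 2.39 for FASN, 2.04 for ELOVL6, 2.43 for SCD and 1.74 for ACLY, and THRSP ran from 0 to 6.67 FPKM. Other members were as wide or wider in diabetic wounds, with ratios of 7.59 in non-diabetic and 12.7 in diabetic wounds for ELOVL7, 6.82 and 11.9 for ELOVL4, and 6.25 and 35.7 for MLXIPL. The standard deviation on the log2 scale was larger among non-diabetic than among diabetic wounds in 18 of 32 members, beside 33.12% of all genes, with a median of 0.37 and 0.29 over members and 0.21 and 0.26 over all genes. These shares describe 1 set of wounds, and members share libraries and are not independent.

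The wound with the highest values thus carried much of several fitted differences. Without non-diabetic replicate 3, the log2 fold changes of ACLY, ACSS2, ME1 and ACSL1 were -0.56, -0.56, -0.42 and -0.63, and 7 members were called lower, with FADS1 lost. ACACA, ELOVL5, SCD, PNPLA3 and THRSP were still called, at -0.69, -0.54, -2.44, -1.57 and -4.54, as were ELOVL6 and ACSL3. Leaving out another wound could also enlarge a difference. Over the 11 fits that left out 1 wound, ACLY, ACSS2, ME1 and ACSL1 reached log2 fold changes of -1.25, -1.13, -1.10 and -1.26.

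**Figure D3:**
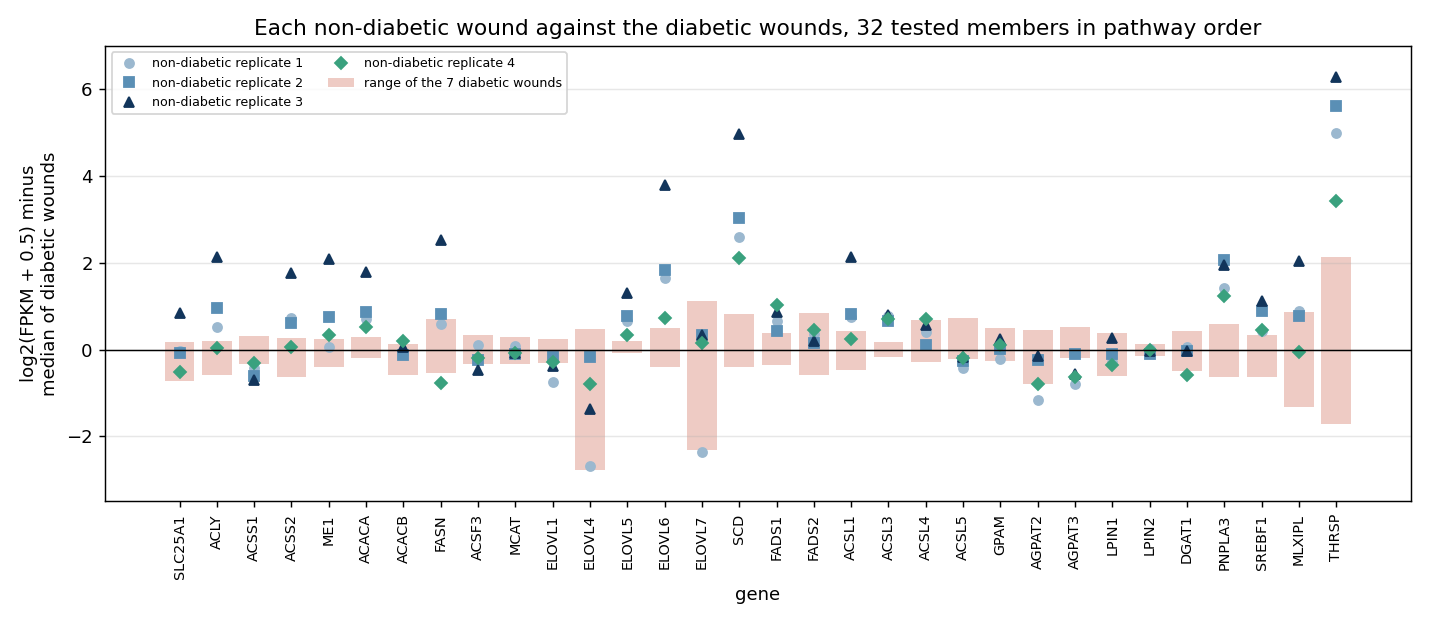
Each non-diabetic wound (marks) and the range of the 7 diabetic wounds (bars) for the 32 members tested, as log2(FPKM + 0.5) minus the median of the diabetic wounds, in pathway order. Non-diabetic replicate 3 (dark triangles) lies above the other 3 for ACLY, ME1, ACACA, FASN, ELOVL6 and SCD, while replicate 4 (green diamonds) falls below the diabetic range for FASN, at 24.3 FPKM.

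Genes of other cell types were set beside these values, because adipocytes and sebaceous glands are rich in the same enzymes. Of 12 adipocyte markers tested, 1 was called lower, LEP, the hormone leptin, at 0 to 0.407 FPKM in diabetic wounds and 1.03, 2.35, 1.29 and 0.579 FPKM in the 4 non-diabetic wounds, for a log2 fold change of -1.41 (SE 0.25, limma adjusted p = 0.0126). LEP passed the filter on low values only through the non-diabetic wounds, so it had to differ to be tested at all, and its call is given as a description. Of the 12 tested, 9 had a log2 fold change below 0, with a median of -0.42 beside 0.01 over all genes tested, and none but LEP was called. ADIPOQ, the adipocyte hormone adiponectin, overlapped, at 12.8 to 136 FPKM (median 45.5) against 83.4, 157, 113 and 69.5 FPKM (log2 fold change -0.97, SE 0.54, limma adjusted p = 0.371). PLIN1, which coats the fat droplet, overlapped too, at 2.45 to 49.9 and 15.9 to 44.9 FPKM, and FABP4, the fatty acid carrier of fat cells and macrophages, was 260 to 632 against 156 to 262 FPKM (log2 fold change 0.92, SE 0.24, limma adjusted p = 0.0607). Summed over the 14 adipocyte markers measured, the level was 300 to 949 FPKM in diabetic and 321 to 560 FPKM in non-diabetic wounds. FABP4 carried most of this sum in diabetic wounds, and without it the other 13 summed to 39.5 to 316 FPKM (median 111) in diabetic wounds and 135 to 299 FPKM (median 216) in non-diabetic wounds.

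The highest sum, with or without FABP4, was in diabetic replicate 6. It held 136 FPKM of ADIPOQ and 49.9 FPKM of PLIN1, more than 3 of the 4 non-diabetic wounds for ADIPOQ and more than all 4 for PLIN1, with 15.0 FPKM of SCD and 6.67 FPKM of THRSP. Non-diabetic replicate 4 held 69.5 and 15.9 FPKM of the same markers, with 47.3 FPKM of SCD and 17.1 FPKM of THRSP. Without FABP4, the markers summed to 39.5, 111, 108 and 104 FPKM in diabetic replicates 1, 2, 5 and 7, below all 4 non-diabetic wounds. Diabetic replicates 3 and 4 held 197 and 173 FPKM, within the non-diabetic range. THRSP and ADIPOQ were both highest in replicate 6 and lowest in replicate 1 of the diabetic wounds. SCD was highest in diabetic replicate 2 and lowest in diabetic replicate 4. Of the non-diabetic wounds, replicate 4 was lowest for THRSP, ADIPOQ and SCD. THRSP and SCD were highest in non-diabetic replicate 3, and ADIPOQ in non-diabetic replicate 2. With the mean of the adipocyte markers, FABP4 included, as a covariate, all 8 members were still called. SCD was at -2.88, THRSP at -4.28, ELOVL6 at -1.75 and PNPLA3 at -1.46, and FASN was at -0.57.

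Within a wound, the ratio of THRSP to ADIPOQ was 0 to 0.0491 in diabetic and 0.245 to 1.13 in non-diabetic wounds, with no overlap. The ratio of SCD to ADIPOQ was 0.0922 to 0.825 and 0.577 to 3.06, which overlapped, and that of FASN to ADIPOQ was 0.451 to 2.58 and 0.349 to 2.17. The ratio of SCD to PLIN1 overlapped too, at 0.300 to 4.31 and 2.10 to 7.69. These ratios were chosen after the values were seen and carry no test.

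**Figure D4:**
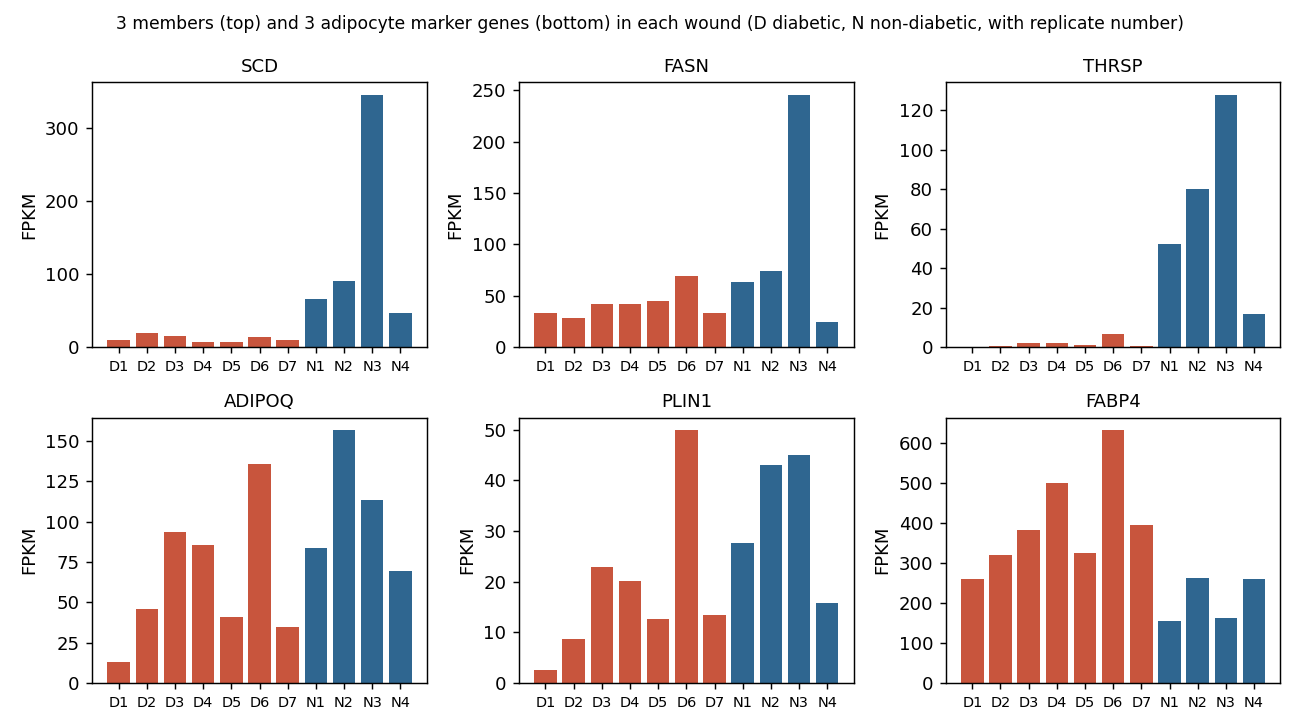
FPKM in each of the 11 wounds (bars; D for diabetic, N for non-diabetic, with the replicate number) for the members SCD, FASN and THRSP above and the adipocyte markers ADIPOQ, PLIN1 and FABP4 below, each on its own axis from 0. ADIPOQ and PLIN1 are high in diabetic replicate 6, at 136 and 49.9 FPKM, where SCD and THRSP are at 15.0 and 6.67 FPKM. They are lowest of the 11 wounds in diabetic replicate 1, at 12.8 and 2.45 FPKM, where SCD and THRSP are at 10.6 and 0 FPKM.

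Sebaceous gland markers were low in most wounds. Of 13 measured, 5 were tested with limma and 0 were called, with 0 at an unadjusted p under 0.05. The wax synthase AWAT1 was at 0 in all 11 libraries, and AWAT2, DGAT2L6 and MC5R did not pass 0.229 FPKM in any. KRT79, a keratin of the gland duct, was 1.01 FPKM (71 reads) in non-diabetic replicate 3, the wound highest for many members, at most 0.0128 FPKM in the other 3 and at most 0.643 FPKM in diabetic wounds. HSD3B1 and GAL reached 3.34 and 2.85 FPKM in diabetic replicate 6, and FA2H, a fatty acid hydroxylase, was 0.0498 to 1.75 FPKM in diabetic and 0 to 0.114 FPKM in non-diabetic wounds (two-sided exact permutation p = 0.0303). The 5 tested are also expressed outside the gland. The sum over the list was 45.6 to 60.6 FPKM in diabetic and 48.1 to 55.4 FPKM in non-diabetic wounds. Its lowest non-diabetic value, 48.1 FPKM, was in replicate 3, the wound with the KRT79 reads. With these markers as a covariate, 5 of the 8 calls stood, and ACACA, ELOVL5 and FADS1 missed at limma adjusted p from 0.0522 to 0.0600 with log2 fold changes of -0.95, -0.71 and -0.70, beside -0.96, -0.72 and -0.76 without the covariate.

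Of the other lists, keratinocyte markers (19 tested), fibroblast markers (12), endothelial markers (10) and muscle markers (3) held 0 limma calls in either direction, with 1, 1, 1 and 0 genes at an unadjusted p under 0.05. Their sums per wound were 70.9 to 7683 and 361 to 3932 FPKM for keratinocytes (KRT14, KRT16 and KRT17 were not assigned), 19487 to 53646 and 35383 to 66734 FPKM for fibroblasts, and 267 to 340 and 259 to 327 FPKM for endothelium, in diabetic and non-diabetic wounds. Muscle markers summed to 6.97 to 14.1 FPKM in all wounds but diabetic replicate 3, at 2256 FPKM. The absence of calls does not make these lists level between the groups. Among keratinocyte markers only 2 of 19 fitted differences lay below 0 (median 0.52). Among muscle markers it was 0 of 3 (median 1.25), but there diabetic replicate 3 alone held a high sum. Fibroblast markers leaned the other way, with 9 of 12 below 0 (median -0.21), and endothelial markers were split, with 5 of 10 (median 0.004). Of 12 macrophage markers 4 were called higher (CD14, MRC1, ITGAM and MARCO, sums 761 to 1729 and 492 to 915 FPKM), and of 3 hair follicle markers tested 1 was called higher, the stem cell keratin KRT15 (sums 7.68 to 42.8 and 2.66 to 18.5 FPKM). The part of these cell types in the members' differences was not tested. The covariate fits do not measure it, because the adipocyte and sebaceous lists hold genes near 0 and genes expressed in other cells.

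Of the pathway's other genes, 67 were measured and 59 tested, and 0 were called lower by limma or by voom, with 3 lower at an unadjusted p under 0.05, and 2 were called higher. Of all genes tested, 1.66% were called lower and 1.35% higher, so these counts are near the share over all genes. The higher ones were SLC27A3, an acyl-CoA synthetase of the fatty acid transport family, and HACD4, a dehydratase of the elongation cycle. SLC27A3 was 5.80 to 7.06 FPKM in diabetic wounds and 3.10, 3.45, 3.52 and 2.58 FPKM in the 4 non-diabetic wounds, for a log2 fold change of 0.92 (SE 0.098, limma adjusted p = 0.000562). HACD4 was 6.45 to 9.40 FPKM and 5.62, 4.26, 5.10 and 5.29 FPKM (log2 fold change 0.58, SE 0.12, limma adjusted p = 0.0215). In both, every diabetic wound was above every non-diabetic wound.

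By role, 0 of 10 genes of citrate and NADPH supply, 1 of 10 of the elongation cycle and other desaturases, 0 of 7 of mitochondrial synthesis, 1 of 8 synthetases and transporters, 0 of 8 of glycerolipid assembly and 0 of 16 regulators were called. The partners of SREBF1 were close to level. SCAP, its escort protein, was at 0.09 (SE 0.14), and INSIG1, which retains it in the reticulum, at -0.13 (SE 0.19). MLX, the partner of MLXIPL, was at 0.04 (SE 0.090), and PPARG, the regulator of fat cell differentiation, at 0.15 (SE 0.20). DGAT2, the other enzyme of the last acylation, overlapped at 5.02 to 37.4 and 14.1 to 33.96 FPKM (log2 fold change -0.40, SE 0.44). MOGAT2, an acyltransferase of monoacylglycerol, did not reach the filter, at 0 to 0.0325 FPKM in diabetic wounds and 0.234, 0.466, 2.23 and 0.246 FPKM in non-diabetic wounds, again highest in non-diabetic replicate 3 (two-sided exact permutation p = 0.00303, the smallest that 330 splits allow).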

How the data were processed

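Per the labels, RNA with poly-A tails was extracted from biopsy punches of day 10 wounds and made into directional (dUTP) libraries. Per the submitters' processing notes, the authors used fastp, HISAT2 2.2.1, StringTie 2.2.3 and featureCounts 2.0.6 with the pig genome Sscrofa11.1. The unit of the deposited values is FPKM, made by the authors per gene and wound, and neither its formula nor the annotation release was given in the sources used here. Multiplied by gene length, 100.0% of the values were whole reads within 0.05 reads, so depth could be recovered. The scale of each library was 0.995 to 1.005 times that expected from median-of-ratios size factors and 0.854 to 1.178 times its reads on genes. Samples were grouped by the labels into diabetic (n = 7) and non-diabetic (n = 4) wounds.

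Members were matched by symbol, and all 34 were found. Genes with at least 0.5 FPKM in at least 4 of 11 libraries were fitted on log2(FPKM + 0.5) with limma 3.58.1 in R 4.3.3 (lmFit, eBayes with trend), with Benjamini-Hochberg adjustment over all 13956 genes. A low value takes a pseudocount of 0.5, which understates the change of low genes. For members that missed the filter, an exact permutation test (two-sided, 330 splits) was used. The deposited unit is not counts, so voom on recovered reads was an alternative only. Other alternatives changed the pseudocount (0.1 or 1), the filter, the scaling, the trend, library weights, a replicate block, the library letter as a covariate, marker lists as covariates and the wounds included. All members were named, with per-wound values for those called or without overlap, and every called gene of the other pathway lists. Members and lists were chosen with earlier results of these data known. The test was tried on simulated data. Sequences before gene starts were read from RefSeq's Sscrofa11.1. Scripts ran under Python 3.11.15 (SciPy 1.17.1, pandas 2.3.3, numpy 2.4.6), with plots from matplotlib 3.10.9.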

Additional observations from a re-analysis of the deposited data

Results flagged for a closer look

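Of 68 groups of wounds examined (34 members in the 2 groups), 4 held 1 wound set apart from the rest by Dixon's ratio on the log2 scale, where chance alone flags about 1 in 20 groups. ELOVL7, a fatty acid elongase, was 2.53 FPKM in non-diabetic replicate 1 and at least 16.9 FPKM in the other non-diabetic wounds. DGAT1, an enzyme of the last step of triglyceride synthesis, was 4.27 FPKM in non-diabetic replicate 4, below a nearest value of 6.52 FPKM. MCAT, the mitochondrial malonyltransferase, was 4.67 FPKM in non-diabetic replicate 1, above a nearest value of 4.09 FPKM. ELOVL3 was at 0 FPKM in diabetic replicate 6, where the next lowest diabetic wound was at 0.0828 FPKM. Without diabetic replicate 6 its two-sided exact permutation p was 0.0286 in place of 0.239. ELOVL3 had at most 10 reads in a library, and this was the only 1 of its 15 alternatives counted as a call. SCD and FASN in non-diabetic replicate 3 were not set apart by this measure.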

How the results depend on the processing

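Of the 8 members called lower, SCD, THRSP, ACSL3 and PNPLA3 were called in 25 of 26 alternatives each, FADS1 in 20, ELOVL5 in 19, ELOVL6 in 18 and ACACA in 17. The number called lower was 4 without diabetic replicate 4 and non-diabetic replicate 1, 5 with sebaceous gland markers as a covariate, and 4 to 8 when 1 wound was left out. ELOVL6 also missed with no filter on low values, where 23541 genes were tested (limma adjusted p = 0.0510). The number called higher was 2 with library weights (ACSS1 and AGPAT3), 1 with keratinocyte markers (ACSS1) and 1 with adipocyte markers (AGPAT3) as a covariate, and 0 to 1 when 1 wound was left out. SREBF1 passed in 5 alternatives, among them quantile normalization and median centring (limma adjusted p = 0.0341 and 0.0438). SLC27A6 with no filter had a limma adjusted p of 0.0239 and a log2 fold change of -0.45, under the size a call needs. Of the other pathway genes, 1 was called higher without the pair of wounds. The replicate numbers did not pair the wounds, with correlations of deviations of -0.27, 0.22, 0.07 and -0.48 for numbers 1 to 4. Replicates 5, 6 and 7 exist only in the diabetic group, so the fit with the replicate block rested on numbers 1 to 4 of each group. Fewer wounds then estimated the spread, and the loss of calls cannot be put down to blocking alone. With the replicate block, 0 members and 0 other pathway genes were called. Over the whole set, 5 lower and 11 higher genes remained in that fit, against 231 and 188 without the block. In that fit SCD, THRSP, ACSL3 and PNPLA3 had log2 fold changes of -2.94, -5.20, -0.74 and -1.77 (limma adjusted p = 0.138, 0.136, 0.183 and 0.0807). Over all genes, library weights called 416 lower and 406 higher, and the fit without the pair of wounds 100 and 112. Leaving out 1 wound gave 99 to 246 lower and 110 to 236 higher. Signs changed only among members that were not called. SLC25A1 was 0.0064 and LPIN2 -0.0027 with adipocyte markers, and ACACB was 0.034 with the replicate block. ELOVL7 was -0.086 with library weights, -0.014 without the pair and -0.12 with keratinocyte markers. GPAM was -0.073 with library weights, -0.014 without the pair, -0.038 with keratinocyte markers and -0.021 with sebaceous gland markers. LPIN1 was -0.033 without the pair. With 1 wound left out, SLC25A1 ranged from -0.35 to 0.11, MCAT from -0.017 to 0.088, ELOVL7 from -0.38 to 0.64 and GPAM from -0.064 to 0.087. The causes of these shifts were not tested. With 1 animal per group no fit separates diabetes from the animal, and wounds below about 10 reads for a gene, as for ELOVL3, limit what could be detected.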
